A study of Mus musculus with 2 samples.

Results

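The inflammasome and pyroptosis genes were 10 mouse genes: the sensors Nlrp3, Nlrc4, Aim2, Nlrp1b and Mefv, the adaptor Pycard, the caspases Casp1 and Casp4, the pore-forming Gsdmd, and the NLRP3 partner Nek7. They were found by gene symbol among the 55536 annotated genes of the deposited tables, and each symbol matched 1 gene. The samples were bone-marrow-derived macrophages of the C57BL/6J strain, primary cells grown from marrow. They were stimulated for 60 min with 100 ng/ml of Lipid A, the lipid anchor of bacterial lipopolysaccharide and ligand of Toll-like receptor 4. From their nuclei the soluble fraction, or nucleoplasm, was taken, and its total RNA was sequenced after depletion of ribosomal RNA. The series held 1 group of 2 libraries, labelled as biological replicates from separate biosamples under the same donor label, and variation between animals may be larger than what separates these libraries. Sex and age were not recorded. An unstimulated library was not analysed here, and every value below is a level after stimulation, not an induction.

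An inflammasome is a protein platform that forms in the cytosol when a sensor meets a microbial product or a sign of damage. The sensor recruits the adaptor ASC, the product of Pycard, which recruits and activates caspase-1. Caspase-1 cleaves the precursors of interleukin-1 beta and interleukin-18 and cuts gasdermin D, whose freed part forms pores in the plasma membrane, and the cell dies by pyroptosis. In the non-canonical pathway of the mouse, caspase-11, the product of Casp4, binds lipid A in the cytosol and cuts gasdermin D directly. In macrophages, stimulation through Toll-like receptor 4 is known as the priming step that raises the transcripts of some of these genes, of which Nlrp3 is the textbook case.

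The gene tables held 21256531 expected counts in replicate 1, which was started from 1 µg of RNA, and 15643649 in replicate 2, started from 500 ng. Levels are given as TPM, a share of the library that is corrected for transcript length. Protein-coding genes of the nuclear genome held 25.4% of TPM in replicate 1 and 18.8% in replicate 2. The median of log2(TPM + 1) over the 8622 of them with TPM 1 or more in each library was 3.22 and 2.87. Protein-coding genes as a set were thus lower in TPM in replicate 2, though not every gene was. All 10 macrophage markers were above TPM 10 in each library, from Lyz2 at 1939 and 1939 down to Fcgr1 at 25.0 and 12.6. No marker of neutrophils (8 genes), dendritic cells (5), B cells (4), T and NK cells (4) or epithelium (4) reached TPM 1 in each library of the gene tables. Their summed TPM per list was there at most 3.56 in any library, and all 4 T and NK cell markers (Cd3d, Cd3e, Cd8a and Ncr1) were at 0 counts. A second deposited quantification of the same libraries differed for Cd3d, at TPM 2.80 and 4.07 in replicates 1 and 2, and for the neutrophil marker Cxcr2, at 1.08 and 1.37. Cd8a stood there at 0.30 and 0.41, and Ncr1 again at 0. Of 4 mast cell markers, Kit alone passed, at 1.94 and 1.24.

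All 10 genes were detected, taken here as TPM 1 or more in each library, as were 39.2% of 22015 protein-coding genes. TPM 10 or more in each was found for 7 of the 10, beside 14.4% of protein-coding genes. The median of log2(TPM + 1) over the 10 genes was 4.91 ± 0.40 (SD, n = 2), beside 3.04 ± 0.24 over the 8622 detected protein-coding genes. The levels were very unequal. Nlrp3 alone made up 53.7% and 46.6% of the summed TPM of the 10 genes in replicates 1 and 2, and Casp4 a further 23.5% and 27.3%. The order from high to low was Nlrp3, Casp4, Aim2, Gsdmd, Nlrp1b, Mefv, Casp1, Nek7, Nlrc4 and Pycard. Of the 9 pairs of neighbours in that order, 8 differed in the same direction in both libraries by more than the SD of the difference. The exception was Aim2 and Gsdmd, whose difference in log2(TPM + 1) was -0.19 in replicate 1 and 0.43 in replicate 2. Without the length correction 4 genes changed place, and Nlrp1b, whose transcripts are long, moved up to place 3 at 200 and 179 CPM, counts scaled to a fixed library sum with no regard to length. Nlrp3, Casp4 and Pycard kept their places on that scale.

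**Figure D1:**
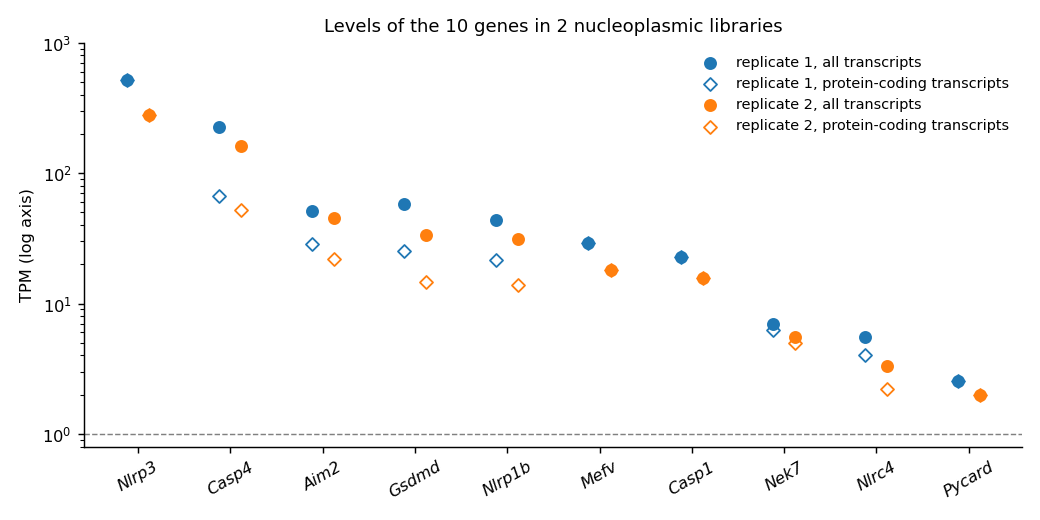
TPM of each gene in replicate 1 and replicate 2, on a log axis. Filled circles count all annotated transcripts of a gene and open diamonds the protein-coding ones alone, and the dashed line marks a TPM of 1. Nlrp3 stands highest at 515 and 277 and Pycard lowest at 2.55 and 1.98, and the circles and diamonds lie far apart for Casp4, Aim2, Gsdmd and Nlrp1b.

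Among the sensors, Nlrp3 was the highest. Its product responds to potassium loss and many other disturbances of the cell. The gene (chromosome 11, 59541568 to 59566956, plus strand, mm10) reached TPM 515 and 277 in replicates 1 and 2, from 47063 and 24004 expected counts. These levels ranked 47 and 70 among the 22015 protein-coding genes. Both libraries thus placed it among the highest genes, while its TPM was lower in replicate 2. The protein-coding genes nearest to it in level in both libraries were Sat1, an enzyme of polyamine breakdown, at 487 and 296, the lysosomal protease gene Lgmn at 484 and 314, and Fyb, an adaptor of immune cells, at 537 and 316.

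Nlrp3 has 2 annotated starts, 1 of Nlrp3-201 at 59541568 and 1 of Nlrp3-202 at 59542686, and both transcripts carry a coding sequence of 3099 bases. They differ in their first exons, so the windows at both starts are shown, 250 bases before and 50 after each, from RefSeq on GRCm38.p6, plus strand. Capitals mark each match to GGGNNNNNCC, a loose form of the motif bound by the transcription factor NF-kappaB, read on both strands.
Nlrp3 upstream start, chr11:59541319-59541618: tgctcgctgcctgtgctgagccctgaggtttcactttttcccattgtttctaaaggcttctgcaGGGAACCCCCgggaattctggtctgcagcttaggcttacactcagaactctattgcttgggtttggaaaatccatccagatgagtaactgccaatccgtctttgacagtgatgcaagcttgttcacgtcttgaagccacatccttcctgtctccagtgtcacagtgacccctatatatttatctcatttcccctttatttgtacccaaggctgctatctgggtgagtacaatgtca
Nlrp3 downstream start, chr11:59542436-59542735: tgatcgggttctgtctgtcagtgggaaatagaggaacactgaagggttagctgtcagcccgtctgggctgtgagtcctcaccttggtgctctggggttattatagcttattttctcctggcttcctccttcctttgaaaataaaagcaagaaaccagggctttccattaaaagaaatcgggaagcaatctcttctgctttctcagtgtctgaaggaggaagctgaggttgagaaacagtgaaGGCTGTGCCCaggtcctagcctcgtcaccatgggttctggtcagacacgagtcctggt
The upstream window holds 1 match, which begins 186 bases before the start, and the downstream window 1, which begins 8 bases before it. A match is common, since 50.8% of the 32851 promoter windows of the RefSeq table hold at least 1.

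The division of Nlrp3 between the starts depended on the deposited table. In the first transcript table, whose counts add up to those of the gene table, Nlrp3-201 held 76.8% and 81.8% of the TPM of the gene in replicates 1 and 2. Nlrp3-202 held the remaining 23.2% and 18.2%. In the second transcript table, made by another quantification of the same libraries, the upstream start held 40.4% and 42.5%. There the downstream group held 59.6% and 57.5%, of which Nlrp3-203, a fragment of 676 bases that was at 0 in the first table, had 16.3% and 29.0%. Each table gave much the same division in both libraries, and the tables differed by far more than the libraries did. Which start led is therefore not settled by these files.

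**Figure D2:**
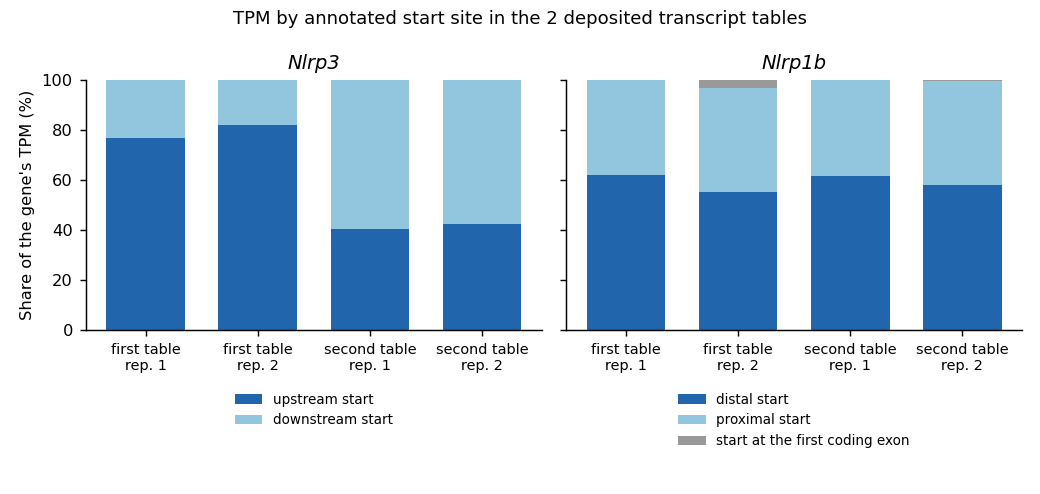
Share of TPM (%) of Nlrp3 (left) and Nlrp1b (right) by annotated start, in each of the 2 deposited transcript tables and each replicate. For Nlrp3 the upstream start holds 76.8% and 81.8% in the first table and 40.4% and 42.5% in the second, while for Nlrp1b the tables lie close together.

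Aim2, which encodes the sensor of double-stranded DNA in the cytosol, followed among the sensors. The gene (chromosome 1, 173350879 to 173466040, plus strand) stood at TPM 51.0 and 45.5 in replicates 1 and 2, from 1231 and 936 expected counts. The transcripts Aim2-202 and Aim2-204 carry the same coding length of 1062 bases. In the first transcript table, Aim2-204, which begins at the last of the 4 annotated start groups, held 73.5% and 72.4% of the counts of the gene. Aim2-202, which begins far upstream at 173350879, held 12.2% and 13.0%. The share of TPM outside protein-coding transcripts was 43.6% and 51.9%, in the short processed transcripts Aim2-201 and Aim2-206 of 372 and 383 bases. The same transcripts held 7.72% and 9.72% of the counts, so their high share of TPM rested on 95 and 91 counts divided by very short lengths. In the second transcript table Aim2-204 and Aim2-202 lay closer together. Aim2-204 had 848 and 890 counts there, and Aim2-202 had 799 and 594. The division between these transcripts is therefore not settled by these files. Cadm3, which overlaps Aim2 on the opposite strand, had 1 count in each library.

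Nlrp1b encodes a sensor that is activated when microbial proteases, such as anthrax lethal factor in some mouse strains, cut it and it is degraded. The gene (chromosome 11, 71153102 to 71230733, minus strand) stood at TPM 43.5 and 31.2, from 4231 and 2798 expected counts. Its nearest relative in the lists, Nlrp1a, was at 0.46 and 0.53. Such relatives are similar in sequence, so a few reads may have been divided between them in a way these files do not show. Nearly all of the RNA of Nlrp1b was assigned to transcripts that begin at a distal start at 71230733 or at a proximal start at 71201456, and each of these has first and second coding exons of its own. A further start, at 71228467, held 0% and 3.18% of TPM in replicates 1 and 2. The first coding exons are shown as the clearest difference between them, both 151 bases on the minus strand of mm10, from the GENCODE M21 transcripts. Capitals mark the bases at which they differ.
Nlrp1b-204, distal, chr11:71228317-71228467: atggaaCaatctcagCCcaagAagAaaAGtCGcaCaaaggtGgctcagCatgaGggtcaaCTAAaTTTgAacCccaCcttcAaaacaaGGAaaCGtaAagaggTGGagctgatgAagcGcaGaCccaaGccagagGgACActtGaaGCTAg
Nlrp1b-203, proximal, chr11:71201148-71201298: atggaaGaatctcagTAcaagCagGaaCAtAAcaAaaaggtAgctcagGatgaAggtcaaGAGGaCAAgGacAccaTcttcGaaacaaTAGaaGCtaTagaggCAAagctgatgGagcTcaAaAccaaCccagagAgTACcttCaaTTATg
The copies were identical at 104 of 151 bases, or 68.9%. The second coding exons, of 1666 bases (distal) and 1675 bases (proximal), were identical at 84.2% of aligned positions. The distal start held 61.9% and 55.3% of the TPM of Nlrp1b in replicates 1 and 2, and the proximal start 38.1% and 41.6%. In the second table the distal share was 61.7% and 57.9%, so for this gene the tables differed little.

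Most of the distal RNA of Nlrp1b was assigned to a transcript annotated as a target of nonsense-mediated decay, the pathway that removes mRNA with an early stop codon. That transcript, Nlrp1b-205, held 50.5% and 55.3% of the TPM of the gene. Within the coding region it differs from the coding Nlrp1b-204 by 160 added bases at the beginning of 1 exon, a number that 3 does not divide, and it also ends slightly farther downstream. The end of its reading frame is shown, with the stop codon in capitals.
Nlrp1b-205, chr11:71172362-71172395, minus strand: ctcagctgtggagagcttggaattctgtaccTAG
The coding sequence that results is 2019 bases, beside 3522 in Nlrp1b-204. The coding partner was poorly determined. Nlrp1b-204 had 478 expected counts in replicate 1, with a deposited posterior SD of 122, and 0.01 in replicate 2, with a posterior SD of 81.8. The decay transcript had smaller posterior SDs relative to its counts, at 2202 and 1641 counts with posterior SDs of 118 and 86.6. Its 160 added bases are intron in Nlrp1b-204, so reads of unspliced RNA may have been assigned to it. The posterior SD does not cover this, and it was not tested.

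Mefv encodes pyrin, which responds when bacterial toxins inactivate the small GTPase RhoA. The gene (chromosome 16, 3707218 to 3718097, minus strand) was measured at TPM 29.3 and 18.1, from 1951 and 1160 expected counts. All 3 of its annotated transcripts are protein-coding and begin close together. Mefv-201 held 61.5% and 69.3% of TPM and Mefv-202 26.4% and 26.2%. Mefv-203 held 12.1% in replicate 1 and 4.48% in replicate 2, with 206 and 44.4 counts and posterior SDs of 25.5 and 10.1.

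Nlrc4, which acts with NAIP proteins that bind flagellin and parts of bacterial secretion systems, was the lowest of the sensors. The gene (chromosome 17, 74425438 to 74459142, minus strand) was measured at TPM 5.58 and 3.32, from 550 and 306 expected counts. A decay transcript, Nlrc4-202, held 27.6% and 33.9% of TPM in the first table but 2.57% and 4.65% in the second. The second table assigned Nlrc4 more counts than the first, by a ratio of 2.23 and 2.96, the highest of the 10 genes. The median of that ratio over protein-coding genes was 1.33 and 1.65. The pseudogene CT033749.1, which lies inside Nlrc4 on the same strand, had no counts.

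Pycard, which encodes the adaptor ASC, was the lowest of the 10 genes. The gene (chromosome 7, 127989708 to 127993867, minus strand) stood at TPM 2.55 and 1.98, from 181 and 136 expected counts, and ranked 7308 and 7286 among protein-coding genes. Nlrp3 stood 202-fold and 140-fold above it in TPM in replicates 1 and 2, and 260-fold and 177-fold in CPM. The main transcript, Pycard-201, is annotated at 3800 bases, of which 579 are coding, so most of the length that its counts are divided by lies outside the coding part. It held 97.9% and 98.2% of the counts of the gene. Gm45205, which overlaps the start of Pycard on the opposite strand, had 13.1 and 6.15 counts, and reads of such partners cannot be told apart where the strand was not used in counting.

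Nek7 encodes a kinase that binds NLRP3 and is needed for its assembly. The gene (chromosome 1, 138482875 to 138620141, minus strand) stood at TPM 6.96 and 5.49, from 664 and 484 expected counts. A retained-intron transcript held 10.6% and 9.67% of TPM, and the rest was divided among 3 coding transcripts. Gm37101 and Gm37080, genes of unsettled nature that lie inside Nek7 on the same strand, were assigned counts, 236 and 211 for Gm37101 and 78 and 69 for Gm37080. The antisense gene Gm28501 had none. Together Gm37101 and Gm37080 had 314 and 280 counts, beside 664 and 484 on Nek7 itself. Whether these counts came from unspliced RNA of Nek7 was not tested.

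The inflammatory caspases differed widely in level although their genes are neighbours. Casp4, which encodes caspase-11, stood at TPM 225 and 162 in replicates 1 and 2, from 5083 and 3680 expected counts. Casp1, which encodes caspase-1, stood at TPM 22.6 and 15.8, from 710 and 469 counts. The libraries did not overlap between the genes, and Casp4 stood 9.98-fold and 10.3-fold above Casp1 in TPM. In CPM the ratio was 7.16 and 7.85. The genes lie head to tail on the plus strand of chromosome 9, Casp1 from 5298517 to 5307265 and Casp4 from 5308828 to 5336783, with 1562 bases between them. Casp12, another caspase gene of the same group, had 3 and 11 counts, a TPM of 0.12 and 0.31.

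The RefSeq windows at the starts of Casp4 and Casp1 are shown on the plus strand of GRCm38.p6. Capitals mark matches to GGGNNNNNCC on either strand.
Casp4, chr9:5308599-5308898: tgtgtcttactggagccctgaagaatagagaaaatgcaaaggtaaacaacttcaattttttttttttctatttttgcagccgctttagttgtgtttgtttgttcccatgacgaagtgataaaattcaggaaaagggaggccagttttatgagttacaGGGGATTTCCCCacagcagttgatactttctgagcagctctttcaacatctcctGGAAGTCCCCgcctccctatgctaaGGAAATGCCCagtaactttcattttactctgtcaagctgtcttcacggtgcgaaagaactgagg
Casp1, chr9:5298267-5298566: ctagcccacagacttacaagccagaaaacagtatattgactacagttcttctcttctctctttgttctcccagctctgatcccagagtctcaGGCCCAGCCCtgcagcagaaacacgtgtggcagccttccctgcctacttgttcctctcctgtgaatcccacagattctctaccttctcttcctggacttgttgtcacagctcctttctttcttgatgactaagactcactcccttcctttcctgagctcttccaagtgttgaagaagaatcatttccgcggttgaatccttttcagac
The Casp4 window holds 5 matches, 3 of which overlap in a single run of capitals that begins 93 bases before the start, while the others begin 39 and 14 bases before it. The Casp1 window holds 1. At least 5 matches were found in 3.16% of the 32851 windows. Whether these matches bear on the levels of the genes was not tested. Over all members, 9 of 10 genes had a window, and 7 of their 12 windows held a match, including 2 of Casp4 that overlap almost entirely, beside 50.8% of all windows. Neither TGANTCA, the letters of an AP-1 site, nor TATAAA was found in any of the 12, while these occur in 7.81% and 13.6% of all windows. GAGGAA, the core letters bound by the macrophage factor PU.1, was found in 5 of the 12 windows (of Aim2, Casp1, Nlrp1b, Nlrp3 and Pycard), beside 28.3% of all windows.

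Most of the TPM of Casp4 was assigned outside its coding transcript. Casp4-201, with a coding sequence of 1119 bases, held 29.8% and 32.1% of TPM in replicates 1 and 2, or a TPM of 67.1 and 51.8. Retained-intron transcripts held 59.9% and 54.7%, and the decay transcript Casp4-204 held 10.2% and 13.2%. Casp1 has a single annotated transcript, which is coding. On coding transcripts alone, Casp4 therefore stood 2.98-fold and 3.29-fold above Casp1. Of the retained-intron transcripts, Casp4-207 holds 277 bases of intron 3, Casp4-205 holds 228 bases of intron 2 and Casp4-202 holds 711 bases of intron 7, numbered along Casp4-201. All hold part of an intron and none holds a whole one. In total RNA of the nucleoplasm, reads of unspliced RNA in these stretches cannot be told apart from reads of such transcripts. The decay transcript Casp4-204 has 5 exons, beside 9 in Casp4-201. It skips 1 internal coding exon of Casp4-201, and its last exon runs 1038 bases past where that exon ends in Casp4-201. Casp4-204 ends there, at 5328357, so it also lacks the end of Casp4-201, which runs to 5336783. Both sequences that set its reading frame are shown, on the plus strand of mm10 from the GENCODE M21 transcripts, with the stop codon in capitals.
Casp4-201, exon absent from Casp4-204, chr9:5322820-5322917: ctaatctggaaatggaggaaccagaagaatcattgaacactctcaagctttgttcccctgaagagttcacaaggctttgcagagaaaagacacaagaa
Casp4-204, end of the reading frame, chr9:5323625-5323719: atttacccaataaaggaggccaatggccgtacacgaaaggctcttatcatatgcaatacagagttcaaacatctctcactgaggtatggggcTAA
The skipped exon shown is 98 bases long, which leaves 2 when divided by 3, and the frame of Casp4-204 closes after a coding sequence of 354 bases. Casp4-204 had 954 and 838 expected counts, with posterior SDs of 18 and 14.4. The bases that directly follow the exon end of Casp4-201 are intron in that transcript. Reads of unspliced RNA may therefore be among the counts of Casp4-204. The posterior SD does not cover this, and it was not tested.

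Gsdmd, the executor, encodes gasdermin D. The gene (chromosome 15, 75862327 to 75867408, plus strand) stood at TPM 58.1 and 33.6, from 1249 and 652 expected counts. Retained-intron transcripts held 56.8% and 56.3% of its TPM, and 29.5% and 31.1% of its counts, since they are shorter than the coding Gsdmd-201. In replicates 1 and 2, Gsdmd-204 held 22.2% and 18.5% of TPM, Gsdmd-205 22.2% and 16.4%, and Gsdmd-206 12.5% and 21.5%. Gsdmd-206 is the one that holds a whole intron of Gsdmd-201, intron 9 of 99 bases. Gsdmd-201, with a coding sequence of 1461 bases, had a TPM of 22.3 and 11.9.

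By transcript type the 10 genes fell into 2 sets. Nlrp3, Mefv, Casp1 and Pycard have no annotated transcript outside the protein-coding type, so none of their TPM could be assigned to one. In the other 6 genes such transcripts held between 9.67% and 70.2% of TPM. At least 50% of TPM in both libraries was reached by 3 of the 10 genes, Casp4, Gsdmd and Nlrp1b, beside 19.0% of the 8622 detected protein-coding genes. By share of expected counts 2 of the 10 reached it, without Gsdmd at 29.5% and 31.1%. In replicate 2 alone, Aim2 reached it as well, at 51.9% of TPM. The median share of TPM over those 8622 genes was 26.5% in replicate 1 and 25.4% in replicate 2. Over the 7263 of them with such a transcript annotated, it was 33.0% and 32.4%. The kind of transcript differed from gene to gene, with retained introns in Casp4, Gsdmd and Nek7, decay transcripts in Nlrp1b, Nlrc4 and Casp4, and processed transcripts in Aim2. Shares of retained-intron transcripts may include reads of unspliced RNA, which was not tested. When the coding transcripts alone were counted, Casp4 remained second at 67.1 and 51.8, and the middle of the order closed up. Mefv, Aim2, Gsdmd, Casp1 and Nlrp1b then lay between 21.6 and 29.3 in replicate 1 and between 13.9 and 21.9 in replicate 2.

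**Figure D3:**
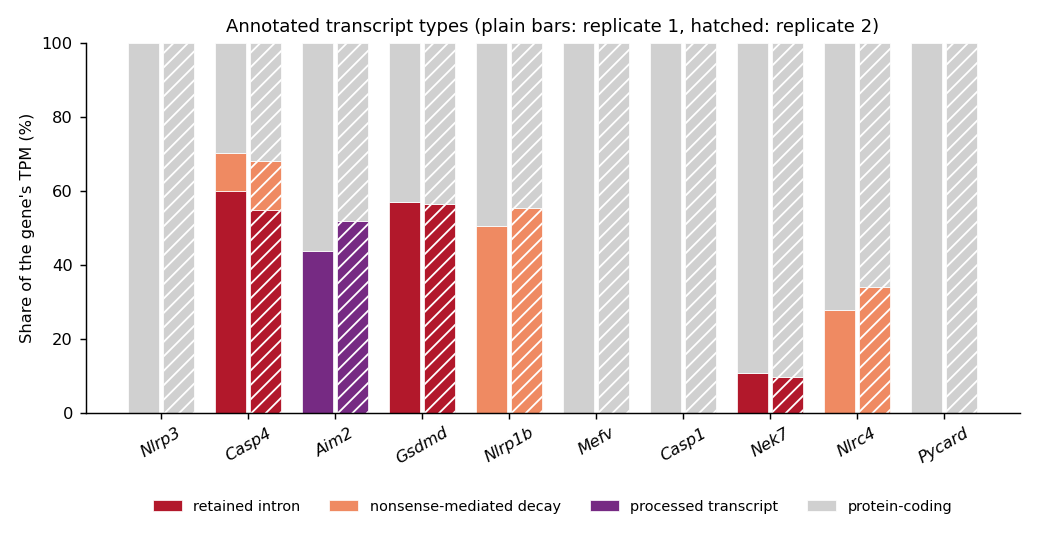
Share of the TPM of each gene (%) by annotated transcript type, with replicate 1 in plain bars and replicate 2 in hatched bars. Casp4 and Gsdmd are led by retained-intron transcripts (59.9% and 54.7%, 56.8% and 56.3%) and Nlrp1b by a decay transcript (50.5% and 55.3%), while 4 genes have protein-coding transcripts alone.

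TPM was lower in replicate 2 for all 10 genes, the direction of the median protein-coding gene. After TMM normalisation of the counts, 6 of the 10 genes were higher in replicate 1 and 4 were lower. The log2 ratio of replicate 1 over replicate 2 was largest for Nlrp3, at 0.48 with a 95% counting interval of 0.45 to 0.50. Gsdmd followed at 0.44 (0.31 to 0.58), then Nlrc4 at 0.35 (0.15 to 0.56) and Mefv at 0.26 (0.15 to 0.36). The intervals of these genes and that of Nlrp1b at 0.10 (0.03 to 0.17) did not include 0. The intervals of Casp1, Casp4, Nek7, Pycard and Aim2 did, and their ratios lay between -0.10 and 0.10. None of the 10 genes passed a 2-fold difference, beside 1.18% of the 10088 genes compared, and 0 of 10 passed it in the direction of replicate 1, beside 0.674%. A larger absolute ratio than that of Nlrp3 was found in 11.5% of the genes compared and a larger one than that of Gsdmd in 14.0%. The median absolute ratio was 0.10 over the members and 0.18 over all genes compared. The intervals cover counting error only, and with 1 group no test between groups was possible.

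**Figure D4:**
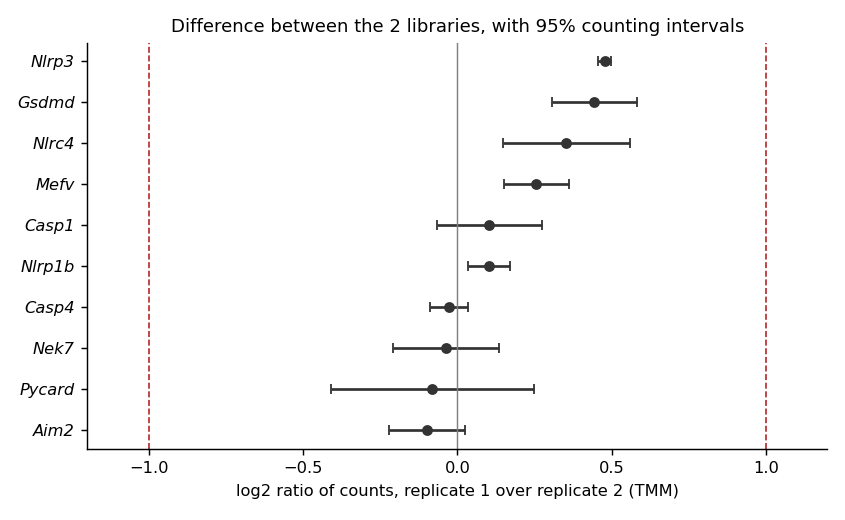
Log2 ratio of normalised counts in replicate 1 over replicate 2 for each gene, with 95% counting intervals; dashed lines mark a 2-fold difference. All 10 genes lie inside the dashed lines, from Nlrp3 at 0.48 to Aim2 at -0.10.

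The other genes of the pathway were described by 7 lists with 60 genes, of which 42 were detected and 24 were at TPM 10 or more in each library. The list of substrate cytokines, of 3 genes, had the highest median of the 7. Il1b, which encodes interleukin-1 beta, reached TPM 784 and 641 in replicates 1 and 2, above Nlrp3 in both. Il1a, for interleukin-1 alpha, which is released by pyroptosis, had 394 and 378. Il18, whose product caspase-1 also cleaves, was far lower at 24.1 and 16.6. The genes of this list thus differed among themselves by more than the libraries did.

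Genes for activators and triggers were present throughout, with 13 of 13 detected. Gbp5, whose product is a GTPase that acts on bacteria-containing vacuoles and on NLRP3, stood at TPM 320 and 235, the transcription factor gene Irf1 had 352 and 149, and Ifi204, an interferon-inducible gene related to Aim2, had 200 and 159. Panx1, which encodes a membrane channel, was the lowest at 1.67 and 1.19. Of 15 genes for inhibitors and decoys, 13 were detected. Il1rn, the interleukin-1 receptor antagonist, led at 208 and 210, followed by the NLRP3 inhibitor gene Trim30a at 108 and 87.6 and by Rhoa at 49.9 and 52.0. Serpinb1a, an inhibitor of inflammatory caspases, was the lowest at 0.16 and 0.33.

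Sensors outside the 10 genes were fewer, with 4 of 9 detected. Nlrc5, a regulator of class I antigen presentation genes, had 62.1 and 36.6, and Nod1, a peptidoglycan sensor gene, had 29.4 and 15.7. Nod2, which senses another peptidoglycan fragment, had 24.6 and 16.6. Nlrp12 had 2 counts in replicate 1 and 0 in replicate 2. Of the 4 NAIP genes, whose products hand bacterial ligands to NLRC4, Naip5 had 14.4 and 9.90, Naip6 12.2 and 9.27, and Naip2 6.65 and 5.51. Naip5 and Naip6 were above Nlrc4 itself in both libraries, in the second table too. Naip2 was above Nlrc4 in the first table but below it in the second, at 2.83 and 3.06 beside 3.59 and 3.06 for Nlrc4, where replicate 2 hardly separated the genes. Naip1 had 0.03 in both. These genes are close copies of each other, and how reads were divided among them is uncertain.

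Outside Casp1 and Casp4, 5 of 7 caspase genes were detected. Casp8, which can also cut gasdermin D, had 14.8 and 14.7, and Casp9 had 3.0 and 2.48. Of 9 other gasdermin-family genes, Gsdme, which encodes a pore-forming gasdermin, was the 1 detected in the gene tables, at 1.92 and 1.38. The other 8 (Gsdma, Gsdma2, Gsdma3, Gsdmc, Gsdmc2, Gsdmc3, Gsdmc4 and Pjvk) had fewer than 3 counts in each library there. In the second table the detected gene was instead Gsdma2, at TPM 1.94 and 2.55, while Gsdme stood at 1.14 and 0.998. At this depth 3 counts correspond to 0.142 and 0.192 CPM, the limit that a count of 0 allows. Gsdmd stood at 58.1 and 33.6 in the same libraries.

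**Figure D5:**
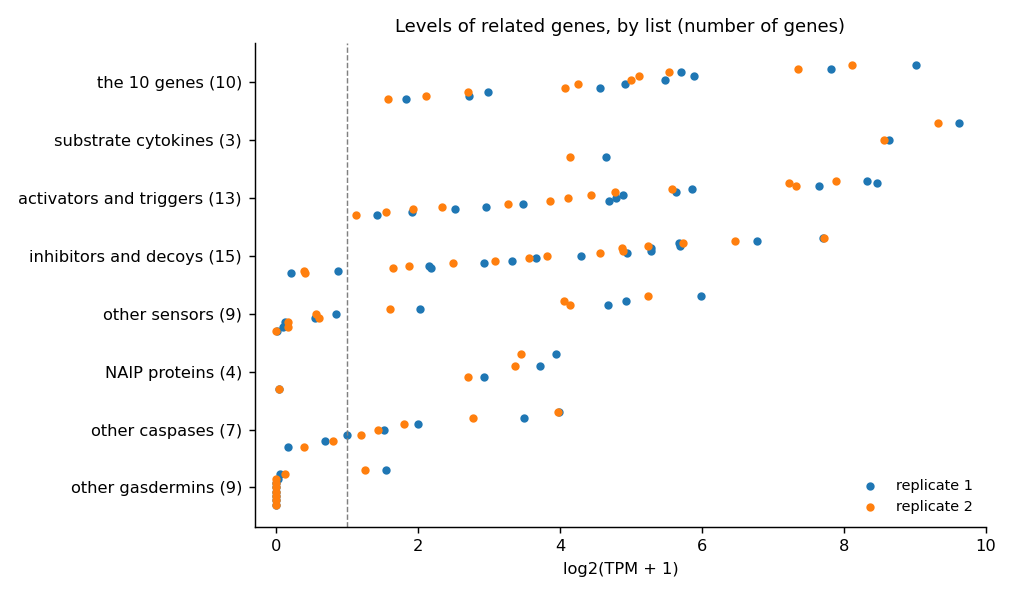
Level as log2(TPM + 1) of the 10 genes and of each gene of the 7 related lists, with 1 point for each gene and replicate and the number of genes in brackets. The dashed line marks a TPM of 1. The substrate cytokines reach a TPM of 784 and 641 for Il1b, and all other gasdermins except Gsdme lie at the left edge in these gene tables.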

How the data were processed

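Total RNA of the nucleoplasmic fraction was sequenced in 2 libraries of 1 group, with a fragment size range of 250 to 400, per the labels. Each library has 3 tables, made on mm10 with GENCODE M21, per the file headers and the deposited README. Which aligner and quantifiers made them, and whether counting used strand, is not given in the sources used here. Expected counts (estimated, not normalised) and TPM of genes and transcripts were deposited by the authors, with a posterior SD. They also deposited estimated counts and TPM of transcripts from a second quantification, summed here per gene. CPM was computed from the deposited expected counts. Rows that name no mouse gene held 0.662% and 0.232% of counts and were left out.

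Levels are log2(TPM + 1), with mean ± SD over the libraries. For replicate ratios, counts were rounded and normalised by TMM in edgeR 4.0.16 (R 4.3.3) over the 10088 genes with a mean count of at least 50, after 0.5 was added, a step tested on simulated data. As an alternative, DESeq2 1.42.0 gave the size factors. Reads carry no molecular identifiers, so the exact binomial intervals and the floor of 3 counts cover counting error only. Sequences came from RefSeq promoter windows (GRCm38.p6) and GENCODE M21 transcripts. Irgb10, Pydc3 and Pydc4 were matched through RefSeq synonyms as Gm12250, Ifi208 and Ifi213.

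The 10 genes and all lists were chosen with earlier results of these data known. The rule for names took the 10 genes, the 3 highest genes and the lowest of each list, list genes under 3 counts in both libraries, genes overlapping a member, and the 3 nearest to Nlrp3 in level. Marker lists are summarised, and 1 gene that the rule takes is not reported here. Nlrp1a was added after its values were seen. Python steps ran with scipy 1.17.1, pandas 2.3.3 and numpy 2.4.6.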

Additional observations from a re-analysis of the deposited data

How the results depend on the processing

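No paired analysis was possible because there is 1 group, so the replicate numbers pair nothing. The median of the 10 genes, 4.91, became 5.79 in log2(CPM + 1), 7.07 in TPM rescaled over protein-coding genes, 3.87 in the second transcript table and 4.32 on protein-coding transcripts alone. These values lie on different scales or count different transcripts. The median of 3.04 over detected protein-coding genes was not recomputed for them, so they do not show whether the 10 genes stay above it. Without replicate 1 or replicate 2 the median of the 10 genes was 4.63 and 5.20. Of the 8 separated pairs of neighbours, 3 changed direction in log2(CPM + 1) or in the second table, namely Gsdmd minus Nlrp1b at -1.91 in log2(CPM + 1), and, in the second table, Mefv minus Casp1 at -0.0094 and Nek7 minus Nlrc4 at -0.012. The pair that was not separated, Aim2 minus Gsdmd, was -0.19 without replicate 2. On coding transcripts alone Nlrp1b moved from place 5 to 7 and Mefv from 6 to 4. The number of pairs in order and separated was 6 both in log2(CPM + 1) and in the second table. The count of genes past 2-fold between the libraries, 119, became 620 with a mean count of at least 10, 5740 with no filter and 569 in the second table, where more genes are compared, and no member passed 2-fold in any of these. Casp4 over Casp1, on average 10.1, became 7.5 in CPM, 11.3 in the second table and 3.13 on protein-coding transcripts. Of the 60 pathway genes, 39 were detected in the second table, where Gsdme dropped out and Gsdma2 came in among the gasdermins, beside 42 in the gene tables. The upstream start of Nlrp3, with 79.3% of TPM on average, became 41.5% in the second table, and the cause was not tested. Of the values of single genes, pairs and lists under all alternatives, 160 were labelled as unmoved, 54 as moved and 3 as reversed, as given above. Leaving out a library could not move a level, pair or share past its spread, which came from the same libraries. Rescaling TPM over protein-coding genes raised every gene and moved all 10 levels. List counts were set against a fixed fold instead of a spread. These totals therefore do not measure stability. Of the summary results, counted apart, 21 were unmoved and 11 moved. The settings on coding transcripts and start sites, and all those for Casp4 over Casp1, were chosen after seeing the data. Low depth limits Pycard and Nlrc4 most among the 10 genes.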
